A study of Mus musculus with 70 samples.

Results

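The 10 genes described here encode proteins that neutrophils store in their granules or hold in their cytosol. They were chosen by name, as neutrophil granule and S100 genes: S100a8, S100a9, Ngp, Camp, Ltf, Lcn2, Retnlg, Mpo, Elane and Prtn3. The choice was made with earlier results of these data known, so the set is not independent of them. They are 10 of the 50789 gene identifiers in the count table. RNA was sequenced from mouse lung at postnatal day 6 and from cortex and cerebellum at 12 weeks of age, in mice without the short isoform of the transcriptional repressor Capicua (Cic-S-KO), in mice without the long isoform (Cic-L-KO) and in WT littermates. Each of the 9 groups held 8 samples, except Cic-S-KO cortex and Cic-S-KO cerebellum with 7 each. The WT samples were littermates of both lines pooled together, and the labels do not say which line each came from or whether replicates were separate animals. P-values therefore measure the spread between these samples. All lung samples carry batch label 1 and all brain samples batch label 2, so tissue, age and batch cannot be told apart, and genotypes were compared only within a tissue.

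Neutrophils build their granules in order as they mature in the bone marrow. The primary (azurophil) granules come first and hold myeloperoxidase and the serine proteases neutrophil elastase and proteinase 3. The secondary (specific) granules follow with lactoferrin, cathelicidin, neutrophilic granule protein and lipocalin 2, while the S100a8 and S100a9 proteins fill the cytosol as the dimer calprotectin. Messenger RNA of the primary granule proteins is lost before the cell leaves the marrow, whereas that of S100a8 and S100a9 stays high in circulating neutrophils. Lipocalin 2 is also made by epithelial cells, the airway epithelium among them.

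Reads per library totalled 17798655 to 35523037 in lung, 20730808 to 32548951 in cortex and 20440799 to 30464699 in cerebellum. Levels are given as read counts scaled to library size (CPM) after TMM normalization. Alveolar epithelial genes summed to between 16207 and 23644 CPM in the lung libraries, against at most 29.1 in cortex and 122.5 in cerebellum. The neuronal and glial genes checked summed to at least 8096 CPM in cortex and 11253 in cerebellum. One lung library stood apart: Cic-S-KO replicate 5 held 134 reads of the cortical gene Neurod6 (3.71 CPM) and 111 of the neuronal gene Snap25 (3.07 CPM). Neurod6 was at 0 reads in the other 23 lung libraries, and Snap25 reached at most 0.588 CPM in them. Total Cic RNA, over both isoforms, was 139 ± 11.3 CPM in WT lung, 172 ± 10.5 in Cic-S-KO lung and 135 ± 5.62 in Cic-L-KO lung (SD, n = 8 each). A gene total over both isoforms does not check which isoform is missing.

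The sequences just upstream of 5 of the genes are shown because these genes moved together in lung and because the letters of 3 factor motifs could be looked for there. They come from the RefSeq promoter windows (build GRCm38.p6, 250 bases before to 50 after the annotated start), cut off where the GENCODE M21 gene model begins. Capitals mark the letters of a motif found on either strand. In S100a8 (chr3:90668821-90668977, plus strand) and S100a9 (chr3:90695722-90695971, minus strand), 2 neighbouring genes, the capitals are a PU.1-type and a C/EBP-type match. In Ngp (chr9:110419558-110419746, plus strand), Ltf (chr9:111019042-111019270, plus strand) and Retnlg (chr16:48872358-48872607, plus strand) they are C/EBP-type matches.
S100a8: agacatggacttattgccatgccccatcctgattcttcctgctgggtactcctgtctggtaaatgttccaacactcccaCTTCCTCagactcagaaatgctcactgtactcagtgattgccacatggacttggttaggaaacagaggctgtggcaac
S100a9: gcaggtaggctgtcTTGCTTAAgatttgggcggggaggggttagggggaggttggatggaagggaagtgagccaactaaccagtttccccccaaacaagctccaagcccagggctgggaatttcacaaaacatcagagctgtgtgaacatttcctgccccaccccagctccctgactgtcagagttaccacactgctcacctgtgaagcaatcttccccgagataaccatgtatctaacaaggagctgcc
Ngp: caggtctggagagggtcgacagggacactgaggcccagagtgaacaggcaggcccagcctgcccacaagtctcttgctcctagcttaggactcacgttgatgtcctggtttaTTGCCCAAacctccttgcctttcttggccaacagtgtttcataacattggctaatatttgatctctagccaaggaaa
Ltf: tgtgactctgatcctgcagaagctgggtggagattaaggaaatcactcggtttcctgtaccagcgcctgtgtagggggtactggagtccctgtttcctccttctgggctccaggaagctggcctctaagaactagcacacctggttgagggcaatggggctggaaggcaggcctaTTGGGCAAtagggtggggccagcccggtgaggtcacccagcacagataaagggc
Retnlg: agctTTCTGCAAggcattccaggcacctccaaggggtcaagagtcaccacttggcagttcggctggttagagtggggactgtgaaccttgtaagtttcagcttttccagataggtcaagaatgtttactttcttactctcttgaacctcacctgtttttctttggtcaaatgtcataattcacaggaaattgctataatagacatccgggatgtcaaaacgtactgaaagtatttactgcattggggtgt

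All 10 genes had a promoter window in the table, and each whole window of 300 bases was searched on both strands. The C/EBP-type letters TTGCNNAA stood in 5 of the 10 windows (Lcn2, S100a9, Ngp, Ltf and Retnlg), against 10.8% of all 32851 windows. The PU.1-type letters GAGGAAG stood in the windows of Lcn2, S100a8, Prtn3, Elane and Mpo, also 5 of 10, against 13.6% of all windows. The 4 octamers to which Capicua is known to bind (TGAATGAA, TGAATGGA, TCAATGAA and TCAATGGA) stood in 0 of the 10 windows and in 3.84% of all windows. No match of one motif overlapped a match of another in these 10 windows. Such matches describe the letters in these windows and nothing about binding.

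In the lung, S100a8, S100a9, Ngp, Camp, Ltf, Lcn2 and Retnlg were higher in Cic-S-KO than in WT, and these 7 genes reached the low-count limit of 0.422 CPM in every lung library. Prtn3 reached it in 8 Cic-S-KO libraries but in only 2 WT and 4 Cic-L-KO libraries. It entered the test through the group in which it was high, so its tests in lung are given as a description and support nothing about the other 7. Mpo and Elane reached it in 0 of 24 libraries and were not tested. Over all 16695 lung genes tested, 15.7% were called between Cic-S-KO and WT, and 9.99% were called higher in Cic-S-KO (edgeR's quasi-likelihood test, Benjamini-Hochberg adjusted p under 0.05). The rises of the 7 were of like size, from 2.72-fold for S100a8 to 3.10-fold for Lcn2. Their median log2 difference was 1.52, beside 0.00 over all genes. In bulk tissue, more neutrophils and more RNA per neutrophil cannot be told apart.

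**Figure D1:**
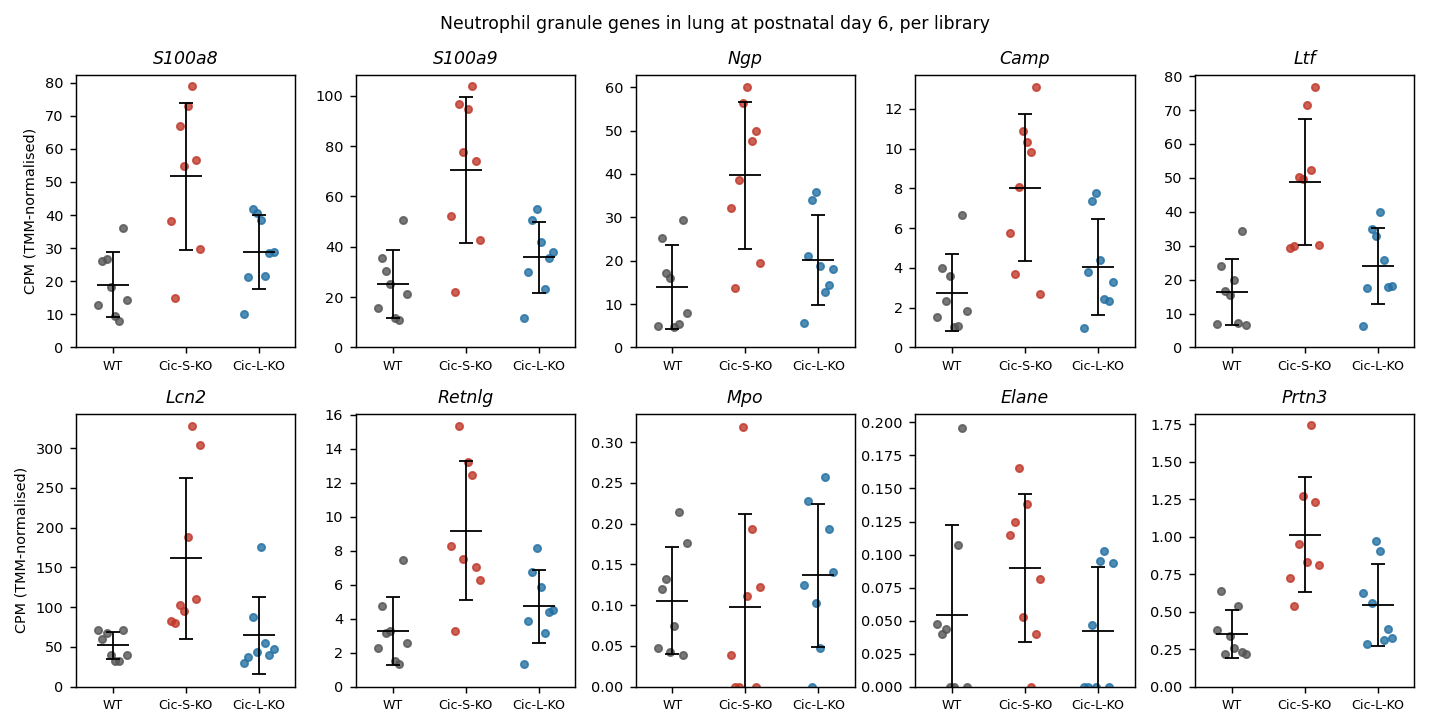
Each panel plots 1 of the 10 genes in lung, in CPM on a linear axis from 0, for the 3 genotypes. Points are the 8 libraries of a group, and the lines give its mean and SD; the Lcn2 libraries of Cic-S-KO (80.7 to 328 CPM) all lie above those of WT (32.6 to 71.3 CPM), and Mpo and Elane stay below 0.32 CPM in every library.

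The calprotectin subunits came first by level. Per kilobase of exon, S100a9 was highest in WT lung at 48.1 ± 26.0 CPM (SD, n = 8), ahead of S100a8 at 27.4 ± 14.2 and Lcn2 at 19.9 ± 6.57. Ngp followed at 11.4 ± 7.91 CPM per kilobase, then Retnlg at 5.55 ± 3.39, Ltf at 4.77 ± 2.83 and Camp at 3.64 ± 2.54. Neighbours in this order overlapped within 1 SD down to Camp. Prtn3, at 0.204 ± 0.0917 CPM per kilobase, lay clear of Camp, and Elane (0.0552 ± 0.0688) and Mpo (0.0309 ± 0.0193) came last. The 10 genes stood in the same order in all 3 genotypes.

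S100a8 encodes the smaller calprotectin subunit (ENSMUSG00000056054.9, chr3:90668978-90670035 in GRCm38). Its level ran from 7.87 to 36.1 CPM in WT lung (median 16.2), from 14.9 to 78.9 in Cic-S-KO (median 55.7) and from 9.99 to 41.8 in Cic-L-KO (median 28.8). In Cic-S-KO, 6 of 8 libraries lay above every WT library, and replicates 2 and 8 lay within the WT range, whose top was WT replicate 7. The difference from WT was 1.44 on the log2 scale (SE 0.357, adjusted p = 0.00900 by edgeR's quasi-likelihood test).

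S100a9, the partner subunit, is transcribed from the other strand nearby on the same chromosome. It ran from 10.8 to 50.8 CPM in WT (median 23.2), from 22 to 104 in Cic-S-KO (median 75.9) and from 11.7 to 55.1 in Cic-L-KO (median 36.7). The same 2 Cic-S-KO libraries as for S100a8 fell within the WT range. Its rise over WT was 1.49 on the log2 scale (SE 0.358, adjusted p = 0.00765, edgeR's quasi-likelihood test).

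Of the secondary granule genes, Ltf encodes lactoferrin, the iron-binding protein of the specific granules. Ltf ran from 6.63 to 34.5 CPM in WT (median 16.1), from 29.4 to 76.9 in Cic-S-KO (median 49.97) and from 6.20 to 39.9 in Cic-L-KO (median 21.9). In 5 of 8 Cic-S-KO libraries it was above all WT libraries, and the other 3, at 29.4 to 30.1 CPM, were below WT replicate 7 only. The log2 difference between Cic-S-KO and WT was 1.57 (SE 0.372, adjusted p = 0.00707, edgeR's quasi-likelihood test).

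Ngp encodes neutrophilic granule protein, a cystatin relative. Ngp ran from 4.69 to 29.4 CPM in WT (median 12.0), from 13.6 to 60.1 in Cic-S-KO (median 43.1) and from 5.66 to 35.9 in Cic-L-KO (median 18.5). Again 6 of 8 Cic-S-KO libraries exceeded all WT libraries, with replicates 2 and 8 inside the WT range. It rose by 1.52 on the log2 scale in Cic-S-KO against WT (SE 0.430, adjusted p = 0.0201, edgeR's quasi-likelihood test).

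Camp encodes the precursor of the antimicrobial cathelicidin peptide. It was lower, at 1.03 to 6.66 CPM in WT (median 2.09), 2.69 to 13.1 in Cic-S-KO (median 8.95) and 0.957 to 7.78 in Cic-L-KO (median 3.54). Of the Cic-S-KO libraries, 5 stood above WT, and the group's log2 difference was 1.54 (SE 0.427, adjusted p = 0.0172, edgeR's quasi-likelihood test). Retnlg, a resistin-like secreted protein of mouse myeloid cells, ran from 1.32 to 7.49 CPM in WT (median 2.88), from 3.28 to 15.4 in Cic-S-KO (median 7.91) and from 1.33 to 8.19 in Cic-L-KO (median 4.43). Here too 5 of 8 Cic-S-KO libraries were above all WT libraries, with a log2 difference of 1.48 (SE 0.363, adjusted p = 0.00800, edgeR's quasi-likelihood test).

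Lcn2 encodes lipocalin 2, which binds bacterial siderophores. It ran from 32.6 to 71.3 CPM in WT (median 50.5), from 80.7 to 328 in Cic-S-KO (median 107) and from 29.4 to 175 in Cic-L-KO (median 45.6). Its Cic-S-KO and WT libraries did not overlap, which was so, in this direction, for 1.51% of all lung genes and for 1 of the 8 tested here. The log2 difference was 1.63 (SE 0.391, adjusted p = 0.00747, edgeR's quasi-likelihood test). Within Cic-S-KO the order of libraries differed from that of the calprotectin genes: Lcn2 was highest in replicates 6 (328 CPM), 8 (304 CPM) and 5 (188 CPM), whereas S100a8 in replicate 8 was only 29.8 CPM.

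Cxcl5, an epithelial chemokine that attracts neutrophils, is set beside Lcn2 library by library, a choice made after the values were seen. In Cic-S-KO it was also highest in replicates 6 (59.3 CPM), 8 (37.4 CPM) and 5 (10.4 CPM), with the other 5 at 2.7 to 6.30 CPM. In Cic-L-KO it was highest in replicate 5 (9.20 CPM), the library with the highest Lcn2 in that group, and at most 1.16 CPM elsewhere. In WT it ran from 0.132 to 2.69 CPM. What part airway epithelium had in the Lcn2 level was not tested.

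The primary granule genes were near the detection limit. Mpo (myeloperoxidase) had 0 to 6 reads per lung library, with 21 reads over the 8 WT libraries, 18 over Cic-S-KO and 23 over Cic-L-KO. Elane (neutrophil elastase) had 0 to 5 reads per library, with 11, 19 and 7 reads over the same groups. The groups overlapped throughout for both genes, and no difference was detectable at this depth. Ctsg and Ms4a3, a further protease and a membrane protein of early granulocyte stages, also stayed under the limit, at group means of at most 0.173 and 0.0559 CPM.

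Prtn3 (proteinase 3) had 5 to 36 reads per lung library, and passed the low-count filter through its Cic-S-KO libraries. It ran from 0.220 to 0.642 CPM in WT (median 0.298), from 0.539 to 1.74 in Cic-S-KO (median 0.892) and from 0.284 to 0.973 in Cic-L-KO (median 0.472). In Cic-S-KO, 7 of 8 libraries were above all WT libraries, and the log2 difference was 1.49 (SE 0.301). In the fit with no low-count filter, which does not depend on that selection, it was 1.48 with an adjusted p of 0.00177 by edgeR's quasi-likelihood test. Prtn3 (chr10:79874476-79883174) overlaps the gene Plppr3 on the other strand over 159 bases, 9.18% of its exon bases. Whether the counting used strand is not stated, so reads of the pair cannot be told apart there. Plppr3 itself differed little between Cic-S-KO and WT lung, by 0.05 on the log2 scale (SE 0.0765, adjusted p = 0.675, edgeR's quasi-likelihood test).

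In Cic-L-KO lung, 0 of the 8 tested genes were called against WT by edgeR's quasi-likelihood test, where 4.89% of all genes were. At an unadjusted p under 0.05 the number was also 0, and DESeq2 called 0. The log2 differences were all above 0, from 0.31 for Lcn2 to 0.61 for Prtn3, with adjusted p-values of 0.282 to 0.700 and SEs of 0.319 to 0.435. For S100a8 the difference was 0.61 (SE 0.357), with 3 of 8 Cic-L-KO libraries above all WT libraries. The Lcn2 difference rested on Cic-L-KO replicate 5: without that library it was -0.10. Both knockouts were set against the same 8 WT libraries, so their differences from WT are not independent of each other.

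**Figure D2:**
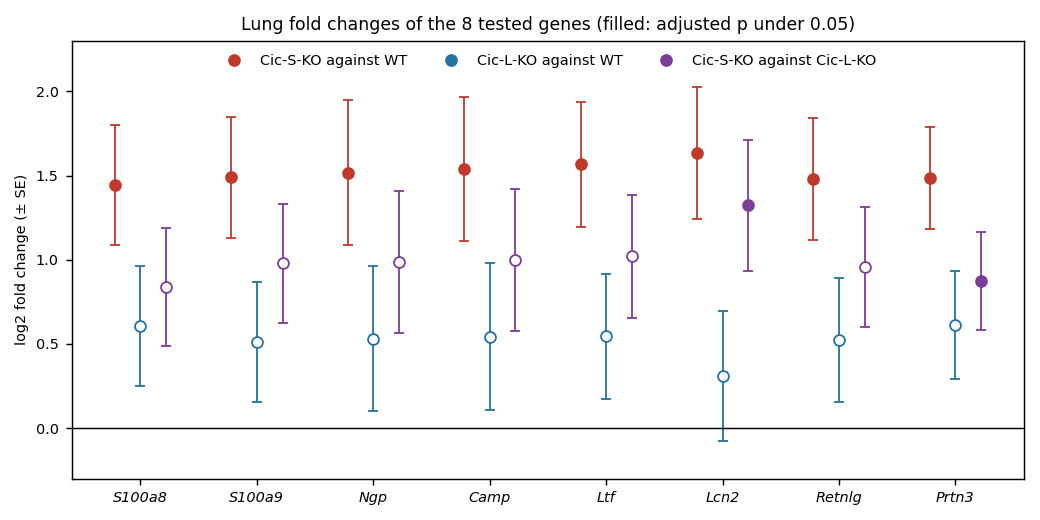
Points are log2 fold changes of the 8 tested genes in lung for the 3 pairs of genotypes, bars are SEs, and filled points passed an adjusted p of 0.05. The differences of Cic-S-KO from WT lie between 1.44 and 1.63, and those of Cic-L-KO from WT between 0.31 and 0.61.

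The direct comparison of the 2 knockouts called 2 of the 8 genes higher in Cic-S-KO, where 12.2% of all genes were called and 7.31% called higher in Cic-S-KO. Lcn2 was 2.5-fold higher (log2 1.32, SE 0.388, adjusted p = 0.0284), and Prtn3 1.83-fold higher (log2 0.87, SE 0.291, adjusted p = 0.0475), by edgeR's quasi-likelihood test. Prtn3 had passed the filter through Cic-S-KO, and with no filter its adjusted p was 0.0864. Among the 7 genes present in every library, 1 was called, namely Lcn2. The log2 differences of the other 6 ran from 0.84 (S100a8) to 1.02 (Ltf) with adjusted p-values of 0.0746 to 0.141, all with an unadjusted p under 0.05. The count of 2 depended on single libraries: it ran from 0 to 4 when each library was left out in turn. Leaving out Cic-S-KO replicate 6 or Cic-L-KO replicate 1, 2, 7 or 8 gave 0, leaving out Cic-S-KO replicate 2 gave 4, and leaving out Cic-L-KO replicate 5 gave 3. Without Cic-S-KO replicate 8 or Cic-L-KO replicate 4, Prtn3 alone was called. Without Cic-S-KO replicate 3, 4, 5 or 7 or Cic-L-KO replicate 3 or 6, Lcn2 alone was.

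Against WT, the 7 genes and Prtn3 remained called in Cic-S-KO in each of the 16 fits without 1 library, with log2 differences of 1.32 to 1.87. Without Cic-S-KO replicate 5, the library with brain reads, they were 1.35 to 1.60.

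The 8 genes varied widely within each genotype. S100a8 differed 4.59-fold between the highest and lowest WT library and 5.28-fold between those of Cic-S-KO, and Camp 8.13-fold between those of Cic-L-KO. Across the 24 lung libraries, with the mean of each genotype removed, log2 levels of S100a9 followed those of S100a8 most closely (Pearson r = 0.99, Spearman rho = 0.97). Retnlg (r = 0.94, rho = 0.89), Ngp (r = 0.91, rho = 0.88) and Camp (r = 0.87, rho = 0.83) came next. For these 4, the permutation p was 1e-05, the smallest that 100000 permutations within genotype can give, and 1.75e-05 adjusted over the 7 relations tested.

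Ltf followed S100a8 less closely (r = 0.77, rho = 0.73, permutation p adjusted to 9.8e-05), and within each genotype its r was at least 0.697. Lcn2 did so more loosely (r = 0.52, rho = 0.61, permutation p = 0.0121, adjusted 0.0141), with r = 0.76 within WT, 0.33 within Cic-S-KO and 0.64 within Cic-L-KO. Without the 2 libraries farthest from the median S100a8 level, WT replicates 5 and 6, the r of Lcn2 was 0.46 with an adjusted permutation p of 0.0541. The r of the other genes but Prtn3 was then 0.83 to 0.99. For Prtn3 no relation was detected over the 24 libraries (r = 0.30, rho = 0.29, permutation p = 0.174, adjusted 0.174). Its r was 0.77 within Cic-S-KO, 0.32 within Cic-L-KO and -0.22 within WT, and 0.42 over all without WT replicates 5 and 6 (adjusted permutation p = 0.0676).

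**Figure D3:**
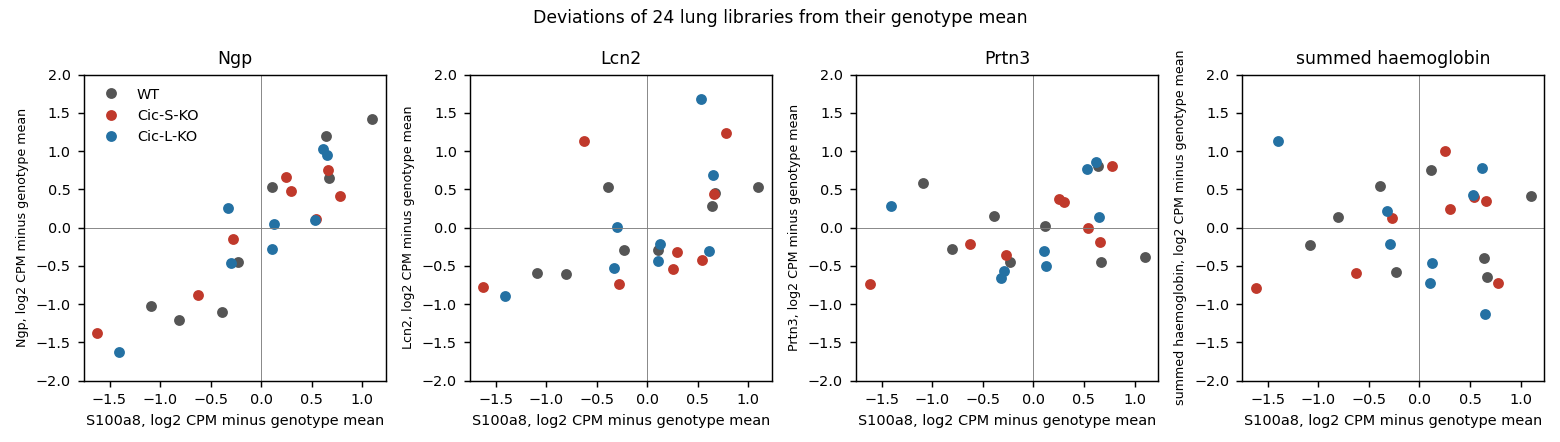
Each point is 1 of the 24 lung libraries, with its log2 deviation from the genotype mean in S100a8 on the x axis and, in the 4 panels, in Ngp, Lcn2, Prtn3 and summed haemoglobin on the y axis. Ngp rises with S100a8 in all 3 genotypes, Lcn2 more loosely, and the haemoglobin points show no common slope.

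By median rank over the 8 genes among the 24 libraries, Cic-S-KO replicate 6 stood highest (rank 23.0) and WT replicate 5 lowest (rank 2.0). Prtn3, which had passed the filter through Cic-S-KO, is 1 of the 8, so these ranks are given as a description. Cic-S-KO replicate 2 (10.5) stood among the WT libraries, and WT replicate 7 (16) at the level of Cic-S-KO replicate 1 (16). Cic-L-KO replicates 4 (19.0) and 3 (17.5) stood above every WT library, and Cic-L-KO replicate 1 (2.5) near the bottom.

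The protein-coding genes outside the 10 whose lung levels were most like the mean of the 8, with genotype means removed, were Gm5483 (r = 0.97), Stfa1 (0.96), Stfa2 (0.95), Stfa3 (0.94), Mmp9 (0.93) and Wfdc21 (0.93), among 13167 candidates over 24 libraries. The first 4 are stefin A genes, near-identical copies whose reads the counting may have split, so their single values are uncertain. The mean of the 8 included Prtn3, which had passed the filter through Cic-S-KO. Mmp9 encodes a gelatinase of the tertiary granules. Its lung level averaged 14.9 ± 5.32 CPM in the Cic-S-KO group, against 6.48 ± 2.96 in WT and 8.91 ± 3.09 in Cic-L-KO (SD, n = 8 each).

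Other genes of granules and their membranes rose as well in Cic-S-KO lung against WT. Of 20 listed, 15 were tested and 15 were called higher (9.99% of all lung genes), with a median log2 difference of 1.12. Of the 15, 14 were also expressed over the limit outside Cic-S-KO, and these 14 were called. Chil3, a chitinase-like protein of macrophages and neutrophils, was 16.05-fold higher (log2 4.0, SE 0.677). Cd177, a neutrophil surface protein that binds proteinase 3 in human cells, was 3.75-fold higher (log2 1.91, SE 0.249). Pglyrp1, a granule protein that binds bacterial peptidoglycan, was 2.18-fold higher (log2 1.12, SE 0.135), and the NADPH oxidase subunit Cyba 1.46-fold higher (log2 0.55, SE 0.0784). In Cic-L-KO lung 2 of the 15 were called against WT (4.89% of all genes), namely Pglyrp1 (log2 0.53, SE 0.137) and Cyba (log2 0.31, SE 0.0785).

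Of 22 listed genes of mature neutrophils, 15 were tested and 14 were called higher in Cic-S-KO than in WT, with a median log2 difference of 1.29. Over all lung genes 9.99% were called higher. Among them were the inhibitory receptor Pirb (log2 1.01, SE 0.136), the protease Asprv1 (1.66, SE 0.292), Wfdc17 (2.05, SE 0.389) and the receptor Trem3 (1.32, SE 0.280). These were named for their small p-values, and which cells their RNA came from was not tested. In Cic-L-KO 0 of the 15 were called against WT (4.89% of all genes), with a median of 0.44 and a lowest adjusted p of 0.192 by edgeR. All 6 tested of the 7 stefin A genes were called higher in Cic-S-KO (median 1.59) and 0 in Cic-L-KO (median 0.73).

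Transcription factors and growth factors listed for granulocytes moved in part. Of 11 listed, 10 were tested and 5 were called higher in Cic-S-KO than in WT (9.99% of all lung genes), with a median of 0.44. Cebpe, the C/EBP factor required for specific granules, was 3.22-fold higher (log2 1.69, SE 0.385). Spi1, which encodes PU.1, was 1.76-fold higher (log2 0.82, SE 0.146), Irf8 1.36-fold (0.45, SE 0.0982) and Cebpb 1.32-fold (0.40, SE 0.108). Macrophage and monocyte genes were also called higher, in 10 of 11 tested, and which cells held the RNA of these factors was not tested. In Cic-L-KO 0 of the 10 were called against WT (4.89% of all genes), with a lowest adjusted p of 0.0617 by edgeR.

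Neutrophil-attracting chemokines rose in part: 5 of 7 were called higher in Cic-S-KO than in WT, and 4 of the 6 that were over the limit outside Cic-S-KO. Their summed level was 913 to 1663 CPM in Cic-S-KO (median 1142), 936 to 1105 in WT (median 1022) and 1037 to 1548 in Cic-L-KO (median 1264). Between the knockouts 2 were called higher and 1 lower in Cic-S-KO, where 12.2% of all genes were called. Over all lung genes 9.99% were called higher in Cic-S-KO, and 4.89% were called in Cic-L-KO against WT. Cxcl5 was 18.9-fold (log2 4.24, SE 0.887) and Cxcl3 12.0-fold higher (3.59, SE 0.771), and Cxcl1 3.65-fold (1.87, SE 0.484). Pf4, a platelet chemokine, was 1.38-fold higher (0.46, SE 0.104) and was 1 of the 2 called in Cic-L-KO (0.35, SE 0.104). Among other S100 genes, 10 of 16 were tested and 5 called higher in Cic-S-KO by small amounts, up to 0.58 for S100b, with a median of 0.24.

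Markers of other cell types moved with the granule genes in Cic-S-KO lung, where 9.99% of all genes tested were called higher than in WT. Macrophage and monocyte genes were called higher in 10 of 11 tested (of 12 listed), by a median of 0.70, with Cd68 at 1.09 (SE 0.165) and Adgre1 at 1.00 (SE 0.133). Their summed level was 799 to 1059 CPM in Cic-S-KO, 770 to 879 in WT and 799 to 949 in Cic-L-KO. Airway epithelial secretory genes were called higher in 8 of 12 tested (of 13 listed), by a median of 2.53, and summed to 4431 to 6408 CPM in Cic-S-KO, 2925 to 4236 in WT and 2459 to 4618 in Cic-L-KO. Mast cell and basophil genes were called higher in 4 of 7 tested (summed 27.5 to 48.8 CPM against 18 to 30.2 in WT). Lymphocyte genes were called higher in 3 of 11 tested (44.0 to 64.7 against 24.3 to 45.9). Of those over the limit outside Cic-S-KO, 3 of 6 mast cell and basophil genes and 2 of 9 lymphocyte genes were called higher.

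Of 9 listed eosinophil genes 4 were tested and 0 called by edgeR (lowest adjusted p 0.0583), and the defining genes Epx and Prg2 were at group means of at most 0.0177 and 0.125 CPM. The 5 proliferation genes had 0 calls (median -0.09). Over all lung genes 15.7% were called between Cic-S-KO and WT. The part of these other cell types in the granule gene levels was not tested. The Cic-S-KO and WT ranges of the granule genes' own sum, over the 7 genes present in every library, were 168 to 632 CPM and 66.3 to 236 CPM.

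Red cell RNA was measured as a check of blood left in the tissue. Summed haemoglobin (Hba-a1, Hba-a2, Hbb-bs and Hbb-bt) was 9907 ± 3692 CPM in WT lung, 12347 ± 5408 in Cic-S-KO lung and 10866 ± 5716 in Cic-L-KO lung (SD, n = 8 each), and the 3 groups overlapped. The log2 difference between Cic-S-KO and WT was 0.28 by a two-sided exact permutation test (p = 0.340, adjusted 0.895 over 9 such comparisons). Summed haemoglobin was also fitted as a covariate, a choice made after the data were seen. The 7 granule genes present in every library were still called in Cic-S-KO against WT by edgeR. So was Prtn3, which had passed the filter through Cic-S-KO, and log2 differences over the 8 were 1.42 to 1.66. Across libraries with genotype means removed, no granule gene had an absolute r above 0.29 with summed haemoglobin (8 relations, adjusted permutation p of 0.993 each). Within genotypes the sign varied: for S100a8, r was 0.50 in Cic-S-KO, -0.47 in Cic-L-KO and -0.04 in WT. Within Cic-S-KO, r was higher for Ngp (0.69), Camp (0.63) and S100a9 (0.52). It was 0.48 for Ltf, 0.39 for Retnlg and 0.22 for Prtn3, and -0.46 for Lcn2. These r values within single genotypes were not tested.

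Per 1000 CPM of haemoglobin, S100a8 had a median of 1.72 CPM in WT lung, 4.10 in Cic-S-KO lung and 2.79 in Cic-L-KO lung. In cortex the medians were 1.51, 0.397 and 0.977 CPM, and in cerebellum 1.18, 1.91 and 2.29. For Lcn2 the lung medians were 5.49, 10.2 and 6.70 CPM, those of cortex 1.67, 1.19 and 0.399 CPM, and those of cerebellum 0.554, 1.08 and 1.13 CPM, each in the same order of genotypes. Age and tissue differ between these samples, and the ratio was not tested.

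**Figure D4:**
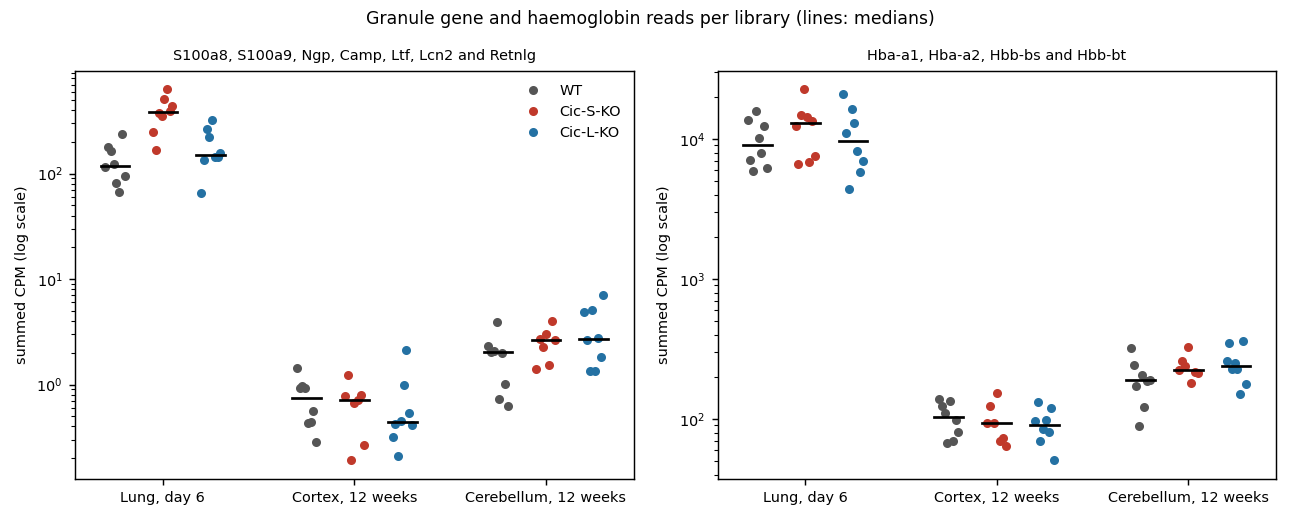
The left panel plots the sum of the 7 granule genes present in every lung library and the right panel summed haemoglobin, in CPM on log axes, for each of the 70 libraries by tissue and genotype, with group medians as lines. Lung libraries lie at 65.3 to 632 CPM of the granule genes, and brain libraries at 0.191 to 7.12 CPM.

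In the brain the same 7 genes were near 0. Their summed level had a median of 0.739 CPM in WT cortex, 0.718 in Cic-S-KO cortex and 0.437 in Cic-L-KO cortex, and of 2.01, 2.67 and 2.72 CPM in cerebellum, against 119, 384 and 151 CPM in lung. Summed haemoglobin was lower too, at 103 ± 28.6 CPM in WT cortex and 192 ± 71.6 in WT cerebellum (SD, n = 8 each). No pair of genotypes differed detectably in brain haemoglobin, with adjusted exact permutation p-values of at least 0.610.

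In cerebellum 4 genes could be tested (S100a8, S100a9, Ngp and Ltf). Of these, 0 were called in Cic-S-KO against WT, where 8.23% of genes were, by edgeR or DESeq2, and 0 at an unadjusted p under 0.05. In Cic-L-KO against WT 1 of 4 was called, where 21.5% of genes were. That gene was Ngp, at 0.0722 to 0.679 CPM in WT (median 0.411) and 0.205 to 1.63 CPM in Cic-L-KO (median 0.645), which is 2 to 40 reads per library. In 4 of 8 Cic-L-KO libraries it was above all WT libraries, and the log2 difference was 1.33 (SE 0.453, adjusted p = 0.0366, edgeR's quasi-likelihood test). The call was lost without the low-count filter (adjusted p = 0.105), and over the 7 alternatives run for this gene the adjusted p ran from 0.0228 to 0.105. That unfiltered fit called Lcn2 instead (log2 1.49, SE 0.474, adjusted p = 0.0353, edgeR's quasi-likelihood test). Lcn2 had 0 to 5 reads per WT cerebellum library and 3 to 15 per Cic-L-KO library, with 6 of 8 of the latter above all WT libraries in CPM. DESeq2 gave it no adjusted p. Haemoglobin in the same libraries was 250 ± 74.2 CPM in Cic-L-KO and 192 ± 71.6 in WT (log2 difference 0.42, exact permutation p = 0.119). Between the knockouts 0 of 4 were called (12.4% of genes), by edgeR or DESeq2, and 0 at an unadjusted p under 0.05.

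In cortex only Prtn3 passed the filter. It was at 0.50 to 1.23 CPM in WT (median 0.810), 0.786 to 1.29 in Cic-S-KO (median 1.04) and 0.0839 to 0.802 in Cic-L-KO (median 0.572). The call fell between the knockouts (log2 0.97, SE 0.247, adjusted p = 0.00263, edgeR's quasi-likelihood test), where 33.9% of all genes were called. Against WT it was not called in Cic-S-KO (6.53% of genes; log2 0.41, adjusted p = 0.320) or in Cic-L-KO (43.2% of genes; log2 -0.56, adjusted p = 0.0666) by edgeR. The unadjusted p in Cic-L-KO was 0.0309, and DESeq2 called neither.

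Plppr3, which shares exon bases with Prtn3 and encodes a phospholipid phosphatase-related membrane protein, moved likewise in cortex. Its mean was 42.4 CPM in WT, 51.9 in the Cic-S-KO group and 32.3 in the Cic-L-KO group, a difference between the knockouts of 0.68 on the log2 scale (SE 0.0779). In lung, by contrast, Plppr3 differed by 0.07 between the knockouts (SE 0.0769, adjusted p = 0.608, edgeR's quasi-likelihood test) while Prtn3 differed by 0.87. How many of the cortex reads assigned to Prtn3 belong to Plppr3 was not tested.

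**Figure D5:**
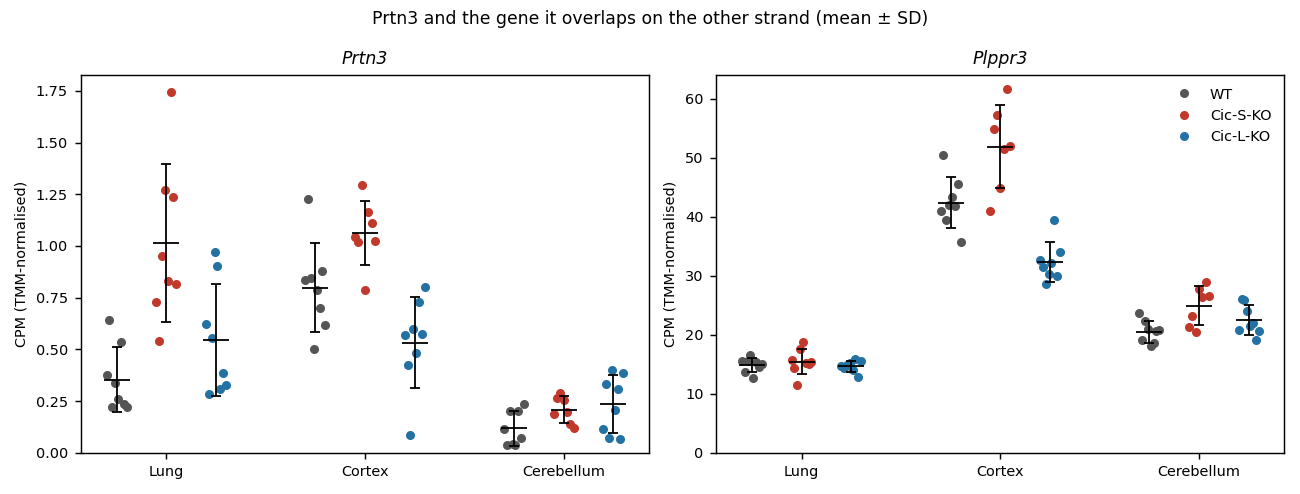
Prtn3 (left) and Plppr3 (right) are plotted in CPM for each library by tissue and genotype, with the mean and SD of each group. In cortex both are lower in Cic-L-KO than in Cic-S-KO, while in lung Plppr3 stays near 15 CPM in all 3 genotypes.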

How the data were processed

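Poly(A)-selected RNA of 70 samples was sequenced. The deposited table holds the authors' raw read counts per gene: its values are whole numbers, and its column totals differ. STAR 2.7 and build GRCm38.p6 are named in the submitters' processing notes. The counting program, the annotation and the use of strand are not given in the sources used here. Of 50789 identifiers, 50725 matched GENCODE M21 (GRCm38) for symbols and exon lengths. Genes of chromosome 1 are not analysed here.

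In each tissue, counts were filtered with filterByExpr (minimum count 10), normalised by TMM and tested with edgeR 4.0.16 (R 4.3.3), by a robust quasi-likelihood fit over all 3 genotypes. P-values were adjusted by Benjamini-Hochberg over 16695 genes in lung, 16974 in cortex and 16643 in cerebellum, and called under 0.05. Of 200 genes simulated with a log2 change of 1 in the lung design (16695 genes), 192 were recovered, and 4% of calls were unchanged genes. These 200 were drawn at random among all genes with a mean over 1 CPM. Recovery of genes that vary as widely between libraries as the granule genes was not measured. Correlations used log2 CPM (prior count 2) and permutations within genotype (numpy 2.4.6, scipy 1.17.1 for exact tests). Counting error sets the precision where counts are low, as in Mpo, Elane and the brain libraries. Among replicates, 0 pairs of libraries were identical.

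The 10 genes and all gene lists were chosen with earlier results of these data known. Named were the 10 genes, at most 4 genes per list with the smallest p among those called in lung Cic-S-KO against WT, and the 6 genes most like the mean of the 8 tested. Other names were chosen after their values were seen. Alternatives were DESeq2 1.42.0, RLE normalization, no low-count filter, a stricter one (mean count of 50 or more), a fit that was not robust, only the compared genotypes, the replicate number as a block, each lung library left out in turn, and, added after the data were seen, summed haemoglobin as a covariate.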

Additional observations from a re-analysis of the deposited data

Results flagged for a closer look

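Of 48 groups of values checked for a library far from its group, 2 held one, where chance alone gives 2.4. Lcn2 in Cic-L-KO lung was 175 CPM in replicate 5, against 29.4 to 87.9 CPM in the other 7 libraries. The gap to the nearest library was 0.598 of the group's range. S100a8 in WT cerebellum was 1.06 CPM in replicate 4, against 0.0784 to 0.463 CPM in the other 7 libraries, a gap of 0.609 of the range.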

How the results depend on the processing

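The 8 calls in Cic-S-KO against WT lung remained 8 under every alternative run, except that a mean of at least 50 counts left Prtn3 untested and gave 7. Prtn3, 1 of the 8, had passed the filter through Cic-S-KO, so 7 of these calls are free of that selection. Leaving out each library gave 8 throughout, and 0 throughout for Cic-L-KO against WT, where every alternative gave 0. Between the knockouts, where 2 genes were called, the count was 0 without the low-count filter and with only the compared genotypes, 1 with a mean of at least 50 counts and with haemoglobin as a covariate, 4 with a non-robust fit and with DESeq2, and 0 to 4 without each library. In Cic-L-KO against WT cortex, no low-count filter gave 1 call (Elane) in place of 0, and in Cic-L-KO against WT cerebellum it called Lcn2 in place of Ngp. Single libraries were left out in lung only. The r of Lcn2 with S100a8 was 0.46 without 2 libraries. The r values with haemoglobin that changed sign without 2 libraries were 0.0598 for S100a8, 0.0529 for S100a9, 0.0858 for Ltf and 0.109 for Retnlg. The Lcn2 difference in Cic-L-KO against WT was -0.10 without Cic-L-KO replicate 5 and up to 0.42 without each other library. The causes were not tested. All haemoglobin comparisons kept their side of the threshold. Replicate numbers are shared between groups, and 5, 6 and 5 of 8 same-numbered lung pairs correlated above 0.1. Since not every pair did, they were not treated as paired, but this criterion cannot exclude pairing. As a hint from the data, 4, 4 and 2 of 8 lung samples correlated best with their own number. With the replicate block, 8 genes were called in Cic-S-KO against WT, 0 in Cic-L-KO against WT and 2 between the knockouts (Lcn2 and Ltf). The brain counts did not change. In brain, however, Cic-S-KO replicate numbers 2 to 7 differ from those in the library names. The block there could therefore not test pairing by library number. Counting error limits Mpo, Elane and the brain values.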
